A study of Rattus norvegicus with 12 samples.

Results

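The 12S and 16S ribosomal RNAs of the mitochondrion, Mt-rnr1 and Mt-rnr2, were followed through RNA recovered with an antibody against Cpeb4 and through the matching total RNA of rat heart muscle cells. The pair was chosen by Ensembl identifier, ENSRNOG00000030478 for Mt-rnr1 and ENSRNOG00000043866 for Mt-rnr2, and makes up 2 of the 32883 genes in the deposited table. Both passed the filter on low counts, which kept 10491 genes. The table itself carries no gene symbols, and the identity of the pair rests on the identifiers alone.

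The 2 mitochondrial rRNAs are encoded close together in the mitochondrial genome and are transcribed inside the organelle. The 12S rRNA forms the core of the small subunit of the mitochondrial ribosome and the 16S rRNA the core of its large subunit, which holds the site of peptide bond formation. Both carry only short A tails, and they are abundant in cardiomyocytes, which are rich in mitochondria. Cpeb4 binds RNA, belongs to the family of proteins that recognise the cytoplasmic polyadenylation element, and is known for its action on messenger RNAs in the cytoplasm.

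The cells were ventricular cardiomyocytes of neonatal Wistar rats, labelled as 2 days of age, isolated by trypsin digestion and a Percoll gradient. The 4 groups of 3 libraries were the Cpeb4 precipitate (IP) of cells exposed for 24 h to phenylephrine (PE), which stimulates alpha-adrenergic receptors and makes heart muscle cells grow in size; the IP of mock-treated cells; the input total RNA of PE cells; and the input total RNA of mock cells. Lysates were sonicated, Cpeb4 was precipitated overnight with a rabbit antibody, and the beads were washed with detergent and high-salt buffers containing DNase. A 3′ end kit turned 200 ng of RNA into each library. No precipitate without the Cpeb4 antibody was analysed here, so a value in the IP is the sum of RNA bound to Cpeb4 and RNA carried along. A share of counts from a 3′ end kit is not a share of the RNA molecules. How well the kit captured the pair was not measured. The labels do not say whether replicates were separate cultures, so p-values measure the spread between these libraries, which may be technical. The labelled cell type was not checked against marker genes, because the identifiers could not be paired with symbols.

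Library totals lay between 1423334 and 30216559 counts. The pair had between 52290 and 1834502 counts per gene and library, and the widest 95% Wilson interval of a share of counts was 0.0612 percentage points to either side. Such intervals cover counting error only. Some libraries stood apart in the genes they lacked: among genes averaging 20 CPM or more (the count of a gene after scaling every library to the same total) in the other libraries of the same type, 6.35% had 0 counts in mock IP replicate 2, 0.502% in PE input replicate 1 and 0.386% in mock input replicate 2, against 0.019% to 0.251% in the other 9.

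Both rRNAs took a several-fold smaller share of the Cpeb4 precipitates than of the inputs, in mock and in PE cells. Together they held 2.78% ± 2.23 (SD, n = 3) of counts in PE IP and 13.5% ± 2.78 (n = 3) in PE input. In mock cells they held 3.05% ± 1.26 (n = 3) in IP and 16.4% ± 3.34 (n = 3) in input. They nevertheless stayed among the abundant features of the precipitates.

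Mt-rnr1, the 12S rRNA of the small subunit, held 0.457%, 2.35% and 1.07% of counts in PE IP replicates 1, 2 and 3, and 6.22%, 5.45% and 6.21% in PE input replicates 1, 2 and 3. In mock IP replicates 1, 2 and 3 it held 1.92%, 0.600% and 2.00%, against 6.59%, 8.91% and 8.29% in mock input. The highest of the 6 IP libraries, PE replicate 2, thus lay below the lowest of the 6 inputs, and the groups did not overlap in either treatment.

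Mt-rnr2, the 16S rRNA of the large subunit, held 0.457%, 2.90% and 1.10% of counts in PE IP replicates 1, 2 and 3, and 10.5%, 6.42% and 5.79% in PE input. In mock IP replicates 1, 2 and 3 it held 1.90%, 0.995% and 1.75%, against 6.34%, 10.7% and 8.34% in mock input. Here too every IP library was below every input, and PE IP replicate 2 was again the highest precipitate.

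**Figure D1:**
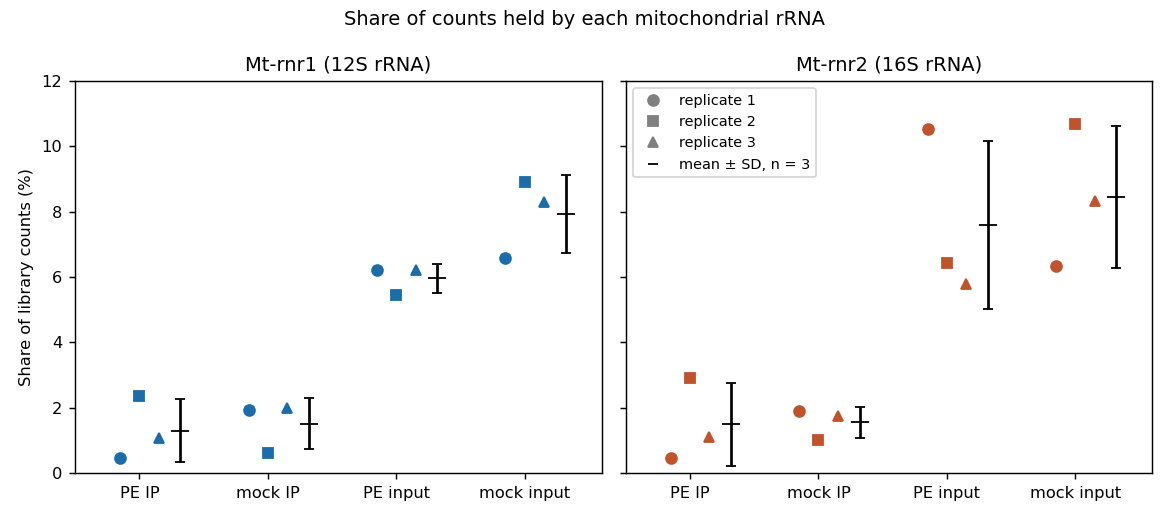
Share of library counts (%) held by Mt-rnr1 (left) and Mt-rnr2 (right) in each of the 12 libraries; symbols are replicates and bars are the mean ± SD of 3 libraries. IP libraries lie between 0.457% and 2.90%, and inputs between 5.45% and 10.7%.

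Taking mock and PE cells together and relabelling libraries inside each treatment, the share of Mt-rnr1 differed by -5.55 percentage points in IP minus input and that of Mt-rnr2 by -6.50 points (two-sided exact permutation p = 0.005 for each, the smallest value possible, 0.04 after Benjamini-Hochberg adjustment over 24 tests; lower in 6 of 6 IP libraries). With sign flips of the 6 same-numbered pairs of IP and input, the same differences had an exact permutation p of 0.03125. This was again the smallest value possible. The adjusted value over the same 24 tests was 0.25. The tests on 3 pairs among them cannot go below an exact permutation p of 0.25. With these floors no outcome of the sign flips could have passed after adjustment, so the adjusted value decides nothing. The PE numbers were not shown to be pairs. Without the 10 other most abundant features in the totals, the differences were -8.74 points for Mt-rnr1 and -9.85 for Mt-rnr2 (exact permutation p = 0.005 for each). Within 1 treatment, 3 libraries against 3 cannot go below an exact permutation p of 0.1, which both rRNAs reached in both treatments (adjusted 0.218). Of the 10491 genes tested, 0.982% had shares of counts without overlap and lower in IP in mock cells, and 1.81% in PE cells.

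By rank within a library, Mt-rnr1 was the 2nd or 3rd most abundant feature of every input and held ranks 2 to 20 in the precipitates. Mt-rnr2 held ranks 1 to 5 in inputs and 2 to 19 in the precipitates. The lowest ranks of both, 20 for Mt-rnr1 and 19 for Mt-rnr2, were in PE IP replicate 1, the library with the largest total of 30216559 counts. The largest precipitate share of both came from PE IP replicate 2, whose total of 2224005 counts was the smallest among the precipitates. The part of library depth in the spread of these shares was not tested.

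The test across all genes was edgeR's quasi-likelihood test, with counts scaled by TMM, which sets a trimmed mean of the genes' log2 fold changes near 0. Single genes can still lie far from 0. The spread between replicates was large, with a common coefficient of variation of 1.004 beyond counting error. In mock cells both fell in IP relative to input, with a log2 fold change of -3.63 for Mt-rnr1 (SE 0.60, edgeR adjusted p = 0.0275) and -3.66 for Mt-rnr2 (SE 0.54, edgeR adjusted p = 0.0124). Of all genes tested, 0.581% were called lower in that comparison. In PE cells the values were -3.32 for Mt-rnr1 (SE 0.59, edgeR adjusted p = 0.0139) and -3.38 for Mt-rnr2 (SE 0.53, edgeR adjusted p = 0.00624), with 1.65% of genes called lower. On the TMM-scaled CPM scale, Mt-rnr1 averaged 10621 ± 5654 in mock IP against 131752 ± 28893 in mock input, and 8355 ± 6434 in PE IP against 83323 ± 23316 in PE input (SD, n = 3 each). Mt-rnr2 averaged 10872 ± 3520 CPM in mock IP and 137091 ± 20037 CPM in mock input, and 9631 ± 8413 CPM in PE IP and 100320 ± 10577 CPM in PE input (SD, n = 3 each).

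The size of the change depended on the scaling, and its direction and call did not. With library totals in place of TMM, the IP over input log2 fold changes were -2.40 for Mt-rnr1 and -2.45 for Mt-rnr2 in mock cells (edgeR adjusted p = 0.0162 for each), and -2.20 and -2.35 in PE cells (edgeR adjusted p = 0.0225 and 0.0182). Under this scaling 842 of 10491 genes were called higher and 10 lower in mock cells, against 17 and 61 with TMM. In PE cells it was 641 and 24, against 48 and 173. The median of all other genes moved up by 1.21 on the log2 scale in mock and 1.09 in PE cells. The pair was lower than the median of all genes tested. A change of scaling moves all genes by nearly the same amount, so this place is not a separate check of the result. The amount of RNA recovered was not measured. Deviations of same-numbered mock IP and input libraries correlated weakly, at 0.183 to 0.284, which does not show that they are pairs. With the replicate number as a block the mock log2 fold changes were -3.80 for Mt-rnr1 (edgeR adjusted p = 0.00232) and -3.71 for Mt-rnr2 (edgeR adjusted p = 0.00702). That fit called 95 genes higher and 177 lower, against 17 and 61 without the block.

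**Figure D2:**
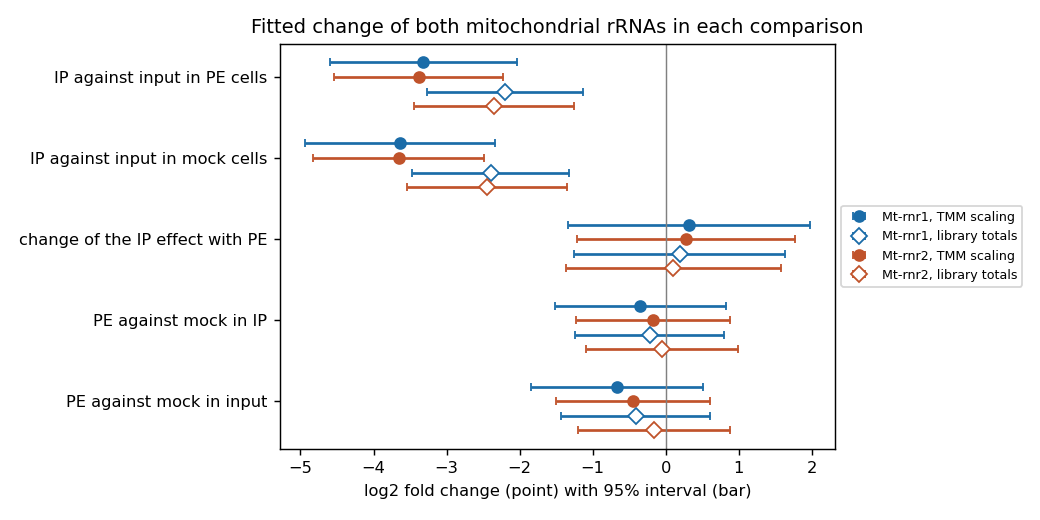
Fitted log2 fold change of Mt-rnr1 (blue) and Mt-rnr2 (orange) in each comparison, with the first-named group over the second; filled circles use TMM scaling, open diamonds library totals, and bars are 95% intervals. The intervals of IP against input lie below 0 in both treatments, and those of the other comparisons include 0.

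The mock call depended on single libraries. Mt-rnr1 did not pass without mock input replicate 1 or 3, where the edgeR adjusted p was 0.0844 and 0.0765, nor without mock IP replicate 1, 2 or 3 (0.0857, 0.0845 and 0.0756). Mt-rnr2 did not pass without mock input replicate 1 (0.0618) or without mock IP replicate 1, 2 or 3 (0.0723, 0.0899 and 0.0756). Few genes of any kind were called lower in mock cells in these fits. Of 10491 genes, 0 were called lower without mock input replicate 1 or mock IP replicate 3. The number was 14 without mock input replicate 3, and 4 and 12 without mock IP replicates 1 and 2. With 1 library left out, the mock log2 fold change ran from -3.91 to -3.25 for Mt-rnr1 and from -3.82 to -3.41 for Mt-rnr2. In PE cells Mt-rnr1 did not pass without PE input replicate 3 (0.0543) or PE IP replicate 3 (0.0612), and its log2 fold change ran from -4.11 without PE IP replicate 2 to -2.91 without PE IP replicate 1. Mt-rnr2 passed in PE cells with any 1 library left out, but its log2 fold change ran from -4.35 without PE IP replicate 2 to -2.95 without PE IP replicate 1.

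Among abundant features, the pair was not alone in being called lower in the precipitates. The 50 most abundant features by mean CPM, the pair among them, had a median log2 fold change of IP against input of -0.97 in mock cells, against 0.11 for all genes tested, and 13 of the 50 were called lower. A ranking by the mean over inputs and precipitates picks features that are abundant in input more readily, and so favours negative values in this set. In this set Mt-rnr2 had the lowest value and Mt-rnr1 the next. In PE cells the median of the 50 was -1.70, against 0.18 for all genes, 22 were called lower, and Mt-rnr2 and Mt-rnr1 were 8th and 9th from the lowest. Among all 10491 genes, Mt-rnr1 was 210th and Mt-rnr2 208th from the lowest in mock cells, and 140th and 131st in PE cells, and every gene with a more negative value than the pair in mock cells lay outside the 50 most abundant.

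The pair carried a part of the counts by which the 10 most abundant features differed between input and IP. The 10 most abundant features, ranked by mean share over all libraries, include Mt-rnr2 in 2nd and Mt-rnr1 in 3rd place. Of the difference in their mean summed share between IP and input, the pair held 38.0% in mock cells and 38.5% in PE cells. These percentages rest on inputs that differed widely in the other 8 features. Those held 13.3% of mock input replicate 2 and 9.83% of PE input replicate 1, against 31.0% to 43.6% of the other inputs. The percentages were not worked out without these libraries. The other 8 features held 11.5% ± 5.98 of counts in mock IP and 33.3% ± 17.4 in mock input, and 8.87% ± 2.22 in PE IP and 26.1% ± 14.4 in PE input (SD, n = 3 each). As a description of the genes called lower, the pair held 36.6% of their counts in mock IP and 67.4% in mock input for the 61 genes of mock cells, and 21.1% in PE IP and 43.4% in PE input for the 173 genes of PE cells.

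Taking the counts of both rRNAs out of every library left most of the difference in composition in place. The other 8 features then held 4.71% to 15.98% of the remaining counts in the 6 precipitates and 11.8% to 51.6% in the 6 inputs. Over both treatments these ranges overlap, whereas with the pair the 10 features held 6.23% to 19.2% in IP and 26.6% to 59.6% in input. Within each treatment IP and input did not overlap without the pair either. The other 8 features then held 4.71% to 15.98% in mock IP and 16.5% to 51.6% in mock input. In PE cells they held 6.45% to 11.2% in IP and 11.8% to 42.4% in input. To reach 50% of the counts it took 181 to 288 genes in IP and 6 to 104 in input without the pair, and 157 to 282 in IP and 5 to 55 in input with it.

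**Figure D3:**
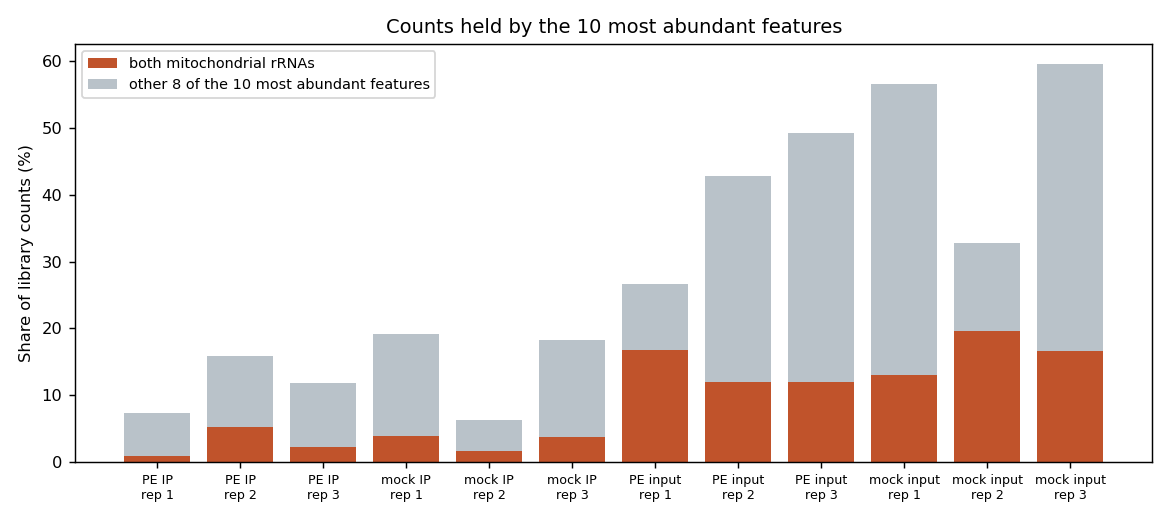
Share of library counts (%) held by both mitochondrial rRNAs (orange) and by the other 8 of the 10 most abundant features (grey) in each library. The pair holds 0.914% to 5.25% in the IP libraries and 11.9% to 19.6% in the inputs, and the grey part is smallest among inputs in PE input replicate 1 and mock input replicate 2.

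The pair carried a part of the shift in the scaling of all other genes. Under library totals the median log2 fold change of the other genes, IP against input, was 1.32 in mock cells with the pair in the totals and 1.10 without it, and 1.27 and 1.10 in PE cells. Removal of the 2 rows thus took away 18.3% of the shift between library totals and TMM in mock cells and 15.6% in PE cells. TMM factors lay between 1.40 and 1.59 in IP and between 0.489 and 0.959 in input with the pair, and between 1.32 and 1.48 in IP and between 0.510 and 1.05 in input without it. Among the other genes, 17 were called higher and 59 lower in mock cells with or without the pair; in PE cells 48 were called higher and 171 lower with it, and 45 and 171 without it.

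The 2 inputs that lacked the most expressed genes had the largest part of their counts in the pair. It held 19.6% of mock input replicate 2 and 16.7% of PE input replicate 1, where the other 8 abundant features held 13.3% and 9.83% of all counts. In the other 4 inputs the pair held 11.9% to 16.6% and the other 8 features 31.0% to 43.6%. A different picture held among the precipitates, where mock replicate 2 had 1.595% of its counts in the pair, the second lowest of the 6. With mock replicate 2 and PE replicate 1 left out of input and IP, the IP over input log2 fold changes were -3.44 for Mt-rnr1 and -3.53 for Mt-rnr2 in mock cells (edgeR adjusted p = 0.000194 and 0.000637), and -3.08 and -2.89 in PE cells (edgeR adjusted p = 0.000255 and 0.00109). The background was also larger in this fit, which called 3.28% of genes lower in mock and 5.92% in PE cells. The part of these libraries in the shares was measured only by leaving them out. PE IP replicate 1 was left out for its number, although it lacked only 0.251% of the genes counted above. It held the lowest share of the pair, 0.914%. Without PE IP replicate 1 alone, the PE log2 fold changes were -2.91 for Mt-rnr1 and -2.95 for Mt-rnr2.

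Neither rRNA passed the test across all genes for PE against mock. In such bulk libraries fewer cells of a type and less of an RNA per cell cannot be told apart. In input, Mt-rnr1 had shares of 5.45% to 6.22% in PE cells and 6.59% to 8.91% in mock cells, lower in 3 of 3 PE libraries (difference -1.97 percentage points, two-sided exact permutation p = 0.1, the smallest value possible, adjusted 0.218). Of all genes tested, 1.90% had shares without overlap and lower in PE input. On the TMM scale the same libraries overlapped, with 64905 to 109539 CPM in PE input and 101356 to 158860 CPM in mock input. The log2 fold change there was -0.66 for Mt-rnr1 (95% interval -1.84 to 0.52) and -0.45 for Mt-rnr2 (-1.51 to 0.60), with an edgeR adjusted p of 1.00 for both. Fitted on the 6 input libraries alone, the values were -0.68 (95% interval -1.20 to -0.16) and -0.47 (-0.89 to -0.038), and the edgeR adjusted p was again 1.00 for both. Without the 10 other most abundant features in the totals, the difference in input was -3.87 percentage points for Mt-rnr1 (exact permutation p = 0.1) and -2.54 for Mt-rnr2 (exact permutation p = 0.2).

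In the precipitates, PE against mock gave a log2 fold change of -0.35 for Mt-rnr1 (95% interval -1.52 to 0.83) and -0.17 for Mt-rnr2 (-1.23 to 0.88), both with an edgeR adjusted p of 1.00. Mt-rnr2 had shares of 0.457% to 2.90% in PE IP and 0.995% to 1.90% in mock IP, so the PE libraries spanned the mock ones. Without PE IP replicate 2 the log2 fold changes were -1.14 for Mt-rnr1 and -1.15 for Mt-rnr2 (edgeR adjusted p = 1.00 for both), and without PE IP replicate 1 they were 0.06 and 0.26. The edgeR test called 0.00953% of genes in either direction for PE against mock in input, and likewise in IP, which is 1 gene in each and neither of the pair. These counts depended on the fit. DESeq2 called 18 genes higher and 3 lower in input, of 6401 that it gave an adjusted p. In IP it called 28 and 13 of 10377. Again neither of the pair was called.

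The effect of IP on the pair was also not seen to differ between treatments. The log2 fold change of IP against input was 0.31 higher in PE than in mock cells for Mt-rnr1 (95% interval -1.34 to 1.97) and 0.28 higher for Mt-rnr2 (-1.21 to 1.76; edgeR adjusted p = 1.00 for both). The edgeR test called 0.00% of genes here, although 271 had an unadjusted p under 0.05. DESeq2 called 2 of the 10377 genes that it gave an adjusted p. The intervals allow a change of up to several-fold in either direction.

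Over all 12 libraries, the profile of each rRNA lay closer to that of the other than to any other gene compared. The distance includes the drop from input to IP that both show, and is not a measure of variation within a library type. Many of the genes compared have far lower counts than the pair, and counting error adds to their distance. Each was the nearest to the other among 5864 genes with a mean of at least 10 CPM, by the root mean square difference of log2 CPM centred on each gene's own mean over the 12 libraries, which was 0.297 between them against medians of 2.20 and 2.21 over all genes compared. Next to both came ENSRNOG00000033615, at 0.430 from Mt-rnr1 and 0.603 from Mt-rnr2. That gene, for which the sources used here give no name, held 0.0109% to 0.0464% of counts in IP and 0.0623% to 0.173% in input.

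Within the 6 precipitates the shares of both rRNAs had a Pearson r of 0.938 (exact permutation p = 0.00556, adjusted 0.0222 over 4 relations) and a Spearman rho of 0.943 (exact permutation p = 0.0167, adjusted 0.0334), and r was 0.908 without mock replicate 2 and PE replicate 1, the farthest from the median. Within the 6 inputs r was 0.574 (exact permutation p = 0.239, adjusted 0.242) and rho 0.600 (exact permutation p = 0.242, adjusted 0.242), and r was 0.0968 without mock replicates 2 and 3. The shares of 1 library have a common total, so a library in which other features take more of the counts lowers both.

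The ratio of 16S to 12S counts removes that common total. It compares how a library splits its counts between the 2 genes, and with a 3′ end kit it is not the ratio of the molecules in the cell. It was 1.00, 1.23 and 1.03 in PE IP replicates 1, 2 and 3, and 1.69, 1.18 and 0.932 in PE input. In mock cells it was 0.989, 1.66 and 0.874 in IP and 0.962, 1.20 and 1.01 in input. The groups overlapped in each comparison.

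The log2 ratio averaged 0.12 ± 0.16 in PE IP and 0.30 ± 0.43 in PE input, and 0.17 ± 0.49 in mock IP and 0.07 ± 0.17 in mock input (SD, n = 3 each). Over both treatments it was 0.04 lower in IP (difference -0.04, two-sided exact permutation p = 0.845, adjusted 0.982), so no unequal depletion of the 2 rRNAs was detected. PE against mock gave a difference of 0.23 in input (exact permutation p = 0.7, adjusted 0.933) and -0.06 in IP (exact permutation p = 1.0, adjusted 1.0). The 2 highest ratios, 1.69 in PE input replicate 1 and 1.66 in mock IP replicate 2, came from the 2 libraries that lacked the largest part of expressed genes for their type.

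**Figure D4:**
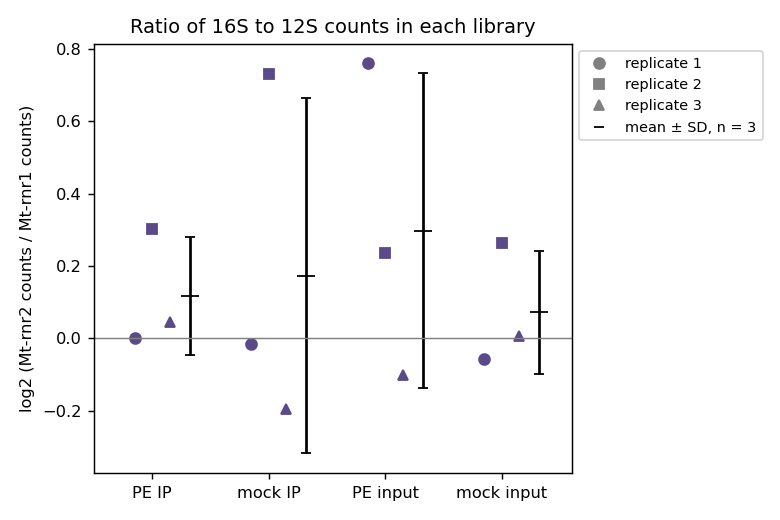
log2 ratio of Mt-rnr2 to Mt-rnr1 counts in each library; symbols are replicates and bars are the mean ± SD of 3 libraries. PE input replicate 1 and mock IP replicate 2 lie above 0.7, and the other 10 libraries between -0.20 and 0.30.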

How the data were processed

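The authors deposited raw counts per gene for 12 libraries in 1 table, with Ensembl rat identifiers and no normalization; 32883 blank lines were skipped. Tools listed in the submitters' processing notes are featureCounts 1.6.4, STAR 2.7, cutadapt 2.5 and DESeq2, with the build Rnor_6.0. No options are given, so how reads shared with nuclear copies of mitochondrial sequence were counted is unknown, and the levels of both rRNAs are uncertain to that extent. The reference table used here lists 0 Ensembl identifiers and no mitochondrial rRNA, so gene lists and sequences were not used here.

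The counts were tested with edgeR 4.0.16 in R 4.3.3 (TMM, filterByExpr, robust quasi-likelihood F-test, 4 group means of 12 libraries, Benjamini-Hochberg over 10491 genes, threshold 0.05); the SE is the log2 fold change divided by the square root of F. Shares and log2 ratios (pseudocount 0.5) were compared by exact permutation. The rule for other genes took, for each rRNA, the 2 nearest profiles. Columns were matched by type, treatment and number. Deviations from group means of same-numbered IP and input libraries correlated in mock cells at 0.246, 0.284 and 0.183 over 5865 genes. These values are low and were taken over genes rather than libraries, so they do not show that the numbers are pairs. The labels do not state a pairing, and the block by number was fitted as an alternative only. Alternatives were DESeq2 1.42.0, other scalings, no filter, 6 libraries, blocks and left-out libraries. Both rRNAs, lists and alternatives were chosen with earlier results of these data known.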

Additional observations from a re-analysis of the deposited data

How the results depend on the processing

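The calls of IP against input held for both rRNAs in both treatments under DESeq2 size factors, library totals, TMM without the pair, no filter, the DESeq2 Wald test, 6 libraries and the replicate block. Counts of genes called higher and lower in mock and PE cells (17 and 61, 48 and 173) ran from 0 and 0 to 19 and 71, and from 3 and 60 to 83 and 249, with 1 library left out; they were 842 and 10, and 641 and 24, under library totals, 156 and 191, and 158 and 265, with no filter, 126 and 281, and 200 and 383, with DESeq2, 0 and 13, and 30 and 107, with 6 libraries, and 164 and 344, and 357 and 621, without mock replicate 2 and PE replicate 1. For PE against mock in input and IP, 1 and 0 genes in each became 18 and 3, and 28 and 13, with DESeq2, 14 and 1, and 17 and 13, with no filter, 2 and 0, and 0 and 0, with 6 libraries, 0 and 0 in both with the replicate block, and 8 and 0, and 19 and 17, without those libraries; neither rRNA was called in any of these. The replicate block gave 95 and 177, and 128 and 293, and turned the change of the IP effect with PE to -0.085 for Mt-rnr2. In PE cells the deviations of same-numbered libraries correlated at 0.281 and 0.321 for numbers 1 and 3, and at 0.0158 for number 2. The counts do not refer to the same number of genes. DESeq2 gave an adjusted p to 3769 genes in mock and 7403 in PE cells for IP against input. For PE against mock it did so for 6401 genes in input and 10377 in IP. The fit with no filter tested 15786 genes, and the other edgeR fits 10491. What caused the moves between fits was not tested. With 6 libraries, fewer samples entered the fit.

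Without mock replicate 2 and PE replicate 1, 36 relabellings remain and an exact permutation p cannot go below 0.0556, which IP minus input reached: -4.80 points for Mt-rnr1, -4.81 for Mt-rnr2 and -9.62 for both. PE against mock in IP then became positive for Mt-rnr2 (log2 fold change 0.018, share 0.18 points), and the log2 ratio changed sign for IP against input (-0.081 in mock, 0.11 in PE, 0.013 over both) and for PE against mock in IP (0.28).

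With each library left out in turn, IP against input on the log2 scale ran from -3.91 to -3.25 (Mt-rnr1) and -3.82 to -3.41 (Mt-rnr2) in mock cells, and from -4.11 to -2.91 (Mt-rnr1) in PE cells. PE against mock in IP ran from -1.14 to 0.062 and from -1.15 to 0.26, and the change with PE from -0.48 to 0.72 and from -0.69 to 0.71. In percentage points, PE against mock in IP ran from -0.74 to 0.20 (Mt-rnr1), -0.77 to 0.46 (Mt-rnr2) and -1.51 to 0.66 (both), in input from -2.35 to 0.24 (Mt-rnr2), and over both library types from -1.43 to -0.85 (Mt-rnr1, exact permutation p = 0.035 without PE IP replicate 2, against 0.1 with all libraries) and -1.21 to 0.089 (Mt-rnr2). The log2 ratio ran from -0.18 to 0.29 in mock, -0.38 to 0.049 in PE and -0.18 to 0.075 over both for IP against input, and from -0.0044 to 0.43 in input, -0.24 to 0.22 in IP and -0.031 to 0.22 over both for PE against mock.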
